A study of Mus musculus with 8 samples.

Results

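The genes described here build the microvilli of the intestinal brush border, and there were 10 of them: Vil1, Espn, Pls1, Eps8, Scin, Ezr, Myo1a, Cdhr2, Cdhr5 and Myo7b. They were chosen by name, and 17 of the 41174 probes of the array matched them through RefSeq accessions. All 10 had at least 1 probe, and all 10 were among the 19270 genes tested, of which 13984 carried a symbol. The rule that picks them uses no measured value.

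RNA came from organoids of the mouse small intestine, which are self-organising epithelial cultures grown in Matrigel, of 2 wild-type lines that had been set up independently. Each line was kept for 6 days under 3 µM CHIR99021, under valproic acid (VPA) at 1 mM, under both compounds at those doses, or in control condition. CHIR99021 inhibits the kinase GSK3 and so raises Wnt/beta-catenin signalling, and VPA inhibits histone deacetylases. Each of the 8 two-colour arrays set a sample (Cy5) against control RNA of the same line (Cy3), so that the 2 control arrays compared control RNA with control RNA, and each treatment had 2 arrays, 1 per line. Whole organoids were measured, so fewer cells of a type and less RNA per cell cannot be told apart, and p-values rest on the spread between 2 lines.

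Microvilli are finger-like extensions of the apical membrane, each held up by a bundle of parallel actin filaments, and the enterocyte brush border is their best known array. Villin, espin and plastin bundle the filaments, Eps8 works at their tips, ezrin and myosin Ia tie the bundle to the membrane, and 2 protocadherins link neighbouring microvilli at their tips through a complex that holds myosin VIIb. Scinderin, a relative of villin in the gelsolin family, severs and caps actin filaments when calcium is present.

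The promoters of Scin and Myo1a, the genes that fell furthest with CHIR99021, and of Vil1, the textbook marker of the brush border, are shown because a start-site window is where a Wnt-dependent factor could be looked for. RefSeq start-site windows (build GRCm38.p6) matched 8 of the 10 genes, and each covers 250 bases before and 50 bases after the annotated start. Scin lies on the minus strand at chr12:40134179-40134478, Myo1a on the plus strand at chr10:127705006-127705305 and Vil1 on the plus strand at chr1:74409134-74409433. Each is written 5′ to 3′ on the strand of its gene, and capitals mark the matches to the motifs named after them.
Scin: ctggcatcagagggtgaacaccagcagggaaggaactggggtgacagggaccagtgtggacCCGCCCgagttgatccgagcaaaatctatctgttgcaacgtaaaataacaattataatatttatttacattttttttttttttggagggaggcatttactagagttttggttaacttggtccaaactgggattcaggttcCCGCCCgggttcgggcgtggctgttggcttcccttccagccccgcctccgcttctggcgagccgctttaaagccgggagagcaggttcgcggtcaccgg
Myo1a: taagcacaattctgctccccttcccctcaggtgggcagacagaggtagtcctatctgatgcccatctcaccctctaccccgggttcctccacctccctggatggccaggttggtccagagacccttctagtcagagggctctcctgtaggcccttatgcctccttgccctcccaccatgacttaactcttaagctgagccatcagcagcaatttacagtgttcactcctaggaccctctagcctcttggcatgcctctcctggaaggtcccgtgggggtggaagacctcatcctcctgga
Vil1: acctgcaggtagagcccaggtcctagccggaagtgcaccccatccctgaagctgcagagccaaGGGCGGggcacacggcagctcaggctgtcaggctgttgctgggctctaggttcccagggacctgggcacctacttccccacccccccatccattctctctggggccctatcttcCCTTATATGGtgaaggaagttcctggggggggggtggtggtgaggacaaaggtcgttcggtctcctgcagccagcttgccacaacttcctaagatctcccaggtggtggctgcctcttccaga
The searched motifs, on both strands, were CTTTGAT (TCF/LEF, the factors that act with beta-catenin), CATAAA (CDX, intestinal homeobox factors), CAAAGTCCA (HNF4, an enterocyte factor), GGGCGG (GC box) and the CArG box of serum response factor. The Scin window held GC boxes at positions -189 and -49 on the opposite strand. That of Vil1 held a GC box at -187 and a CArG box at -73, and no match was found in that of Myo1a. Matches printed here did not overlap one another. Of the 32851 windows in the table, 3.73% held the TCF/LEF letters, 11.9% the CDX letters, 0.475% the HNF4 letters, 35.7% a GC box and 1.63% a CArG box. No window of these genes held the TCF/LEF or HNF4 letters, while Cdhr5 held CATAAA at -39 and 1 of the 3 Espn windows held it at -196. A match, or its absence, describes letters in these 300 bases only.

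Every array value below is a log2 ratio of sample over control RNA of its line for the brightest probe of the gene, and every difference is between group means with its standard error (SE, n = 2 arrays per group), from a limma fit of all 8 arrays with Benjamini-Hochberg adjustment over the 19270 genes. A gene passed at an adjusted p under 0.05. The share of spots whose Cy5 signal was well above background lay between 60.6% and 64.6% on each array, and none of the spots of the 10 genes was saturated. The arrays' log2 ratios had an SD of 0.417 and 0.38 under CHIR99021, 0.565 and 0.489 under VPA, 0.68 and 0.544 under the combination, and 0.231 and 0.203 on the control arrays. The same control RNA, read on 4 arrays per line in Cy3, varied between 0.0209 (Pls1) and 0.203 (Scin) log2 units (SD) among the 10 genes, against a median of 0.0583 in line 1 and 0.0544 in line 2 over all genes. All 6 epithelial markers were above background on every array, and so were 4 of 7 mesenchymal and 2 of 4 leukocyte markers that had a probe.

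CHIR99021 lowered the actin-severing gene Scin 9.11-fold and the myosin gene Myo1a 2.38-fold, and no microvillus gene rose. These 2 of 10 genes passed, against 1.06% of all genes in either direction and 0.955% that fell. The difference was negative for 9 of the 10, with a median of -0.47, against 0.01 over all genes. VPA lowered only Myo7b among the 10, and organoids with both compounds had lower Scin and Myo1a than control organoids.

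**Figure D1:**
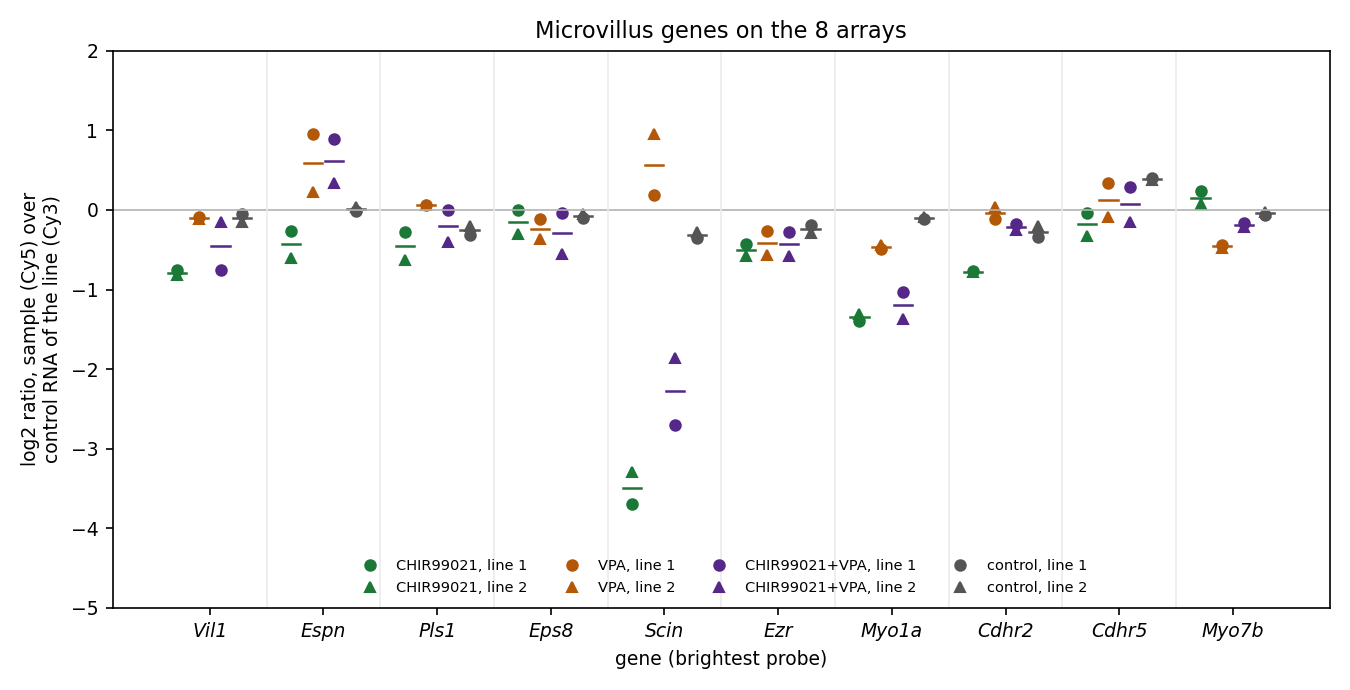
Log2 ratio of sample (Cy5) over control RNA of the line (Cy3) for the brightest probe of each of the 10 genes on the 8 arrays; circles are line 1, triangles line 2, and bars the mean of the 2 lines. Scin read -3.70 and -3.30 with CHIR99021 and -2.70 and -1.86 with both compounds, apart from all other values.

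Scin, the scinderin gene, had log2 ratios of -3.70 and -3.30 in lines 1 and 2 under CHIR99021, 0.19 and 0.95 under VPA, -2.70 and -1.86 under the combination, and -0.35 and -0.27 on the control arrays. Both CHIR99021 arrays were the lowest, both combination arrays came next, and both VPA arrays lay above both control arrays, so that no 2 groups overlapped. The difference between CHIR99021 and control was -3.19 ± 0.34 (adjusted p = 0.0185), the 4th lowest of all 19270 genes. With both compounds it was -1.97 ± 0.34 (adjusted p = 0.0118), a 3.92-fold lower ratio. Scin with VPA was 0.88 ± 0.34 above control, 0.54 in line 1 and 1.22 in line 2, and missed the threshold (adjusted p = 0.159) except with the line as a block (adjusted p = 0.0228), where 19.4% of all genes passed. Its signal was 6.85 to 231 times the local background in Cy5, so it was measured well above background at its lowest too.

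Myo1a, the motor that tethers the membrane to the core bundle, had log2 ratios of -1.40 and -1.30 under CHIR99021, -0.50 and -0.45 under VPA, -1.03 and -1.37 under the combination, and -0.11 and -0.09 on the control arrays. All 6 treated arrays lay below both control arrays, and the CHIR99021 and combination arrays lay below the VPA arrays. Myo1a fell by 1.25 ± 0.13 with CHIR99021 (adjusted p = 0.0173) and by 1.10 ± 0.13 with both compounds, 2.14-fold (adjusted p = 0.00323). With VPA alone the difference of -0.37 ± 0.13 did not pass (adjusted p = 0.117). A further Myo1a probe gave differences of -1.20, -0.61 and -1.06 for CHIR99021, VPA and both compounds, each of the same direction, although that probe itself read -0.55 and -0.59 on the control arrays, where both dyes carried control RNA.

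Vil1 encodes villin, which bundles actin filaments and severs them at high calcium. Its log2 ratios were -0.76 and -0.82 under CHIR99021, -0.09 and -0.12 under VPA, -0.75 and -0.16 under the combination, and -0.05 and -0.15 on the control arrays. The CHIR99021 arrays were the lowest, the VPA arrays lay within the range of the control arrays, and the lines parted with both compounds. Vil1 with CHIR99021 was -0.69 ± 0.18 from control (95% interval -1.13 to -0.25), which did not pass over all genes (adjusted p = 0.178, and 0.108 with the line as a block). It passed in 4 of 18 alternative settings, 2 of them with 1 array left out, and ranged from -0.80 to -0.52. The difference was 0.00 ± 0.18 with VPA (95% interval -0.44 to 0.44) and -0.35 ± 0.18 with both compounds. The Vil1 spots on the line 1 arrays of CHIR99021 and of the combination had a local background that the scanner software marked as an outlier. Without the combination array of line 2 the combination difference was -0.65 (adjusted p = 0.0179), and without that of line 1 it was -0.06. A further Vil1 probe gave -0.50 with CHIR99021, 0.01 with VPA and -0.33 with both compounds, with -0.46 and -0.50 on the combination arrays of the 2 lines.

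The other bundling genes were not called. Espn encodes espin, a small actin bundler that lengthens microvilli, and read -0.26 and -0.60 under CHIR99021, 0.95 and 0.22 under VPA, 0.89 and 0.34 under the combination, and -0.01 and 0.03 on the control arrays. Its CHIR99021 arrays lay below, and its VPA and combination arrays above, both control arrays, yet none of these 3 differences passed (-0.44 ± 0.28, 0.58 ± 0.28 and 0.60 ± 0.28, with adjusted p = 0.598, 0.249 and 0.208). The Espn spot was dim, at 1.74 to 6.36 times its local background, where the offset of the background correction pulls ratios towards 0. With the ratios the scanner software had written, the same differences were -0.58, 0.82 and 0.81. Those ratios also differ in background correction and normalisation, and the part of the offset was not tested. A further Espn probe gave -0.32, 0.31 and 0.55. On that probe the CHIR99021 array of line 1, at -0.002, lay between the control arrays, at -0.019 and 0.116.

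Pls1 encodes the intestinal plastin (fimbrin) and read -0.28 and -0.63 under CHIR99021, 0.07 and 0.06 under VPA, 0.00 and -0.41 under the combination, and -0.31 and -0.20 on the control arrays. Its VPA arrays lay above the control arrays, while CHIR99021 and the combination overlapped them. Differences from control were -0.20, 0.32 and 0.05 for CHIR99021, VPA and both compounds (SE 0.17 each), and none passed. Eps8, a tip protein that caps and bundles actin, read 0.00 and -0.31 under CHIR99021, -0.12 and -0.36 under VPA, -0.04 and -0.55 under the combination, and -0.10 and -0.05 on the control arrays. Line 2 was the lower one under each treatment, CHIR99021 and the combination overlapped control, and the Eps8 differences of -0.08, -0.17 and -0.22 (SE 0.19 each) did not pass.

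Ezr, whose product ezrin links the membrane to actin once phosphorylated, varied least of the 10. It read -0.43 and -0.58 under CHIR99021, -0.27 and -0.56 under VPA, -0.27 and -0.58 under the combination, and -0.19 and -0.29 on the control arrays. Its CHIR99021 arrays lay below both control arrays, and the VPA and combination arrays overlapped them. Over the 6 treated-minus-control differences of the 2 lines its range was 0.21, against 4.58 for Scin, the widest, and 1.6 for Espn. Ezr differed from control by -0.27 ± 0.15, -0.18 ± 0.15 and -0.19 ± 0.15 under CHIR99021, VPA and both compounds, and did not pass (adjusted p = 0.54, 0.523 and 0.474).

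Cdhr2 encodes one of the 2 protocadherins of the link and read -0.77 and -0.78 under CHIR99021, -0.11 and 0.03 under VPA, -0.18 and -0.25 under the combination, and -0.34 and -0.20 on the control arrays. Its CHIR99021 arrays were the lowest and the combination arrays overlapped control. Cdhr2 with CHIR99021 was -0.51 ± 0.10 from control, which passed with the line as a block (adjusted p = 0.0484, with 2.86% of all genes passing) and not without it (adjusted p = 0.0803). A dim Cdhr2 probe gave -0.05 with CHIR99021. It was at 1.27 to 1.81 times its local background in Cy5 and above background on 7 arrays in Cy5 and 6 in Cy3. The offset pulls ratios of such dim spots towards 0, and its part in the smaller difference was not tested.

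Cdhr5, the mucin-like partner of Cdhr2, read -0.04 and -0.33 under CHIR99021, 0.34 and -0.08 under VPA, 0.29 and -0.15 under the combination, and 0.40 and 0.38 on the control arrays. Its highest values were thus on the arrays that compared control RNA with itself, and every treated array lay below them. Cdhr5 differed from control by -0.57 ± 0.20, -0.27 ± 0.20 and -0.32 ± 0.20 with CHIR99021, VPA and both compounds (adjusted p = 0.292, 0.47 and 0.347). Set against 0 rather than the control arrays, the VPA and combination values of Cdhr5 were 0.13 and 0.07.

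Myo7b encodes the motor that carries the tip-link complex. It read 0.24 and 0.07 under CHIR99021, -0.44 and -0.48 under VPA, -0.16 and -0.22 under the combination, and -0.06 and -0.02 on the control arrays. No 2 groups overlapped, and VPA was the lowest. Myo7b fell by 0.41 ± 0.09 with VPA (adjusted p = 0.0386), by 0.37 in line 1 and by 0.46 in line 2, and its further probe gave -0.49. It was the 1 member of 10 to pass with VPA, against 10.7% of all genes in either direction and 4.18% that fell, so the share of the 10 was near that of all genes. With CHIR99021 the difference was 0.20 ± 0.09 (adjusted p = 0.454), the sole positive one of the 10.

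**Figure D2:**
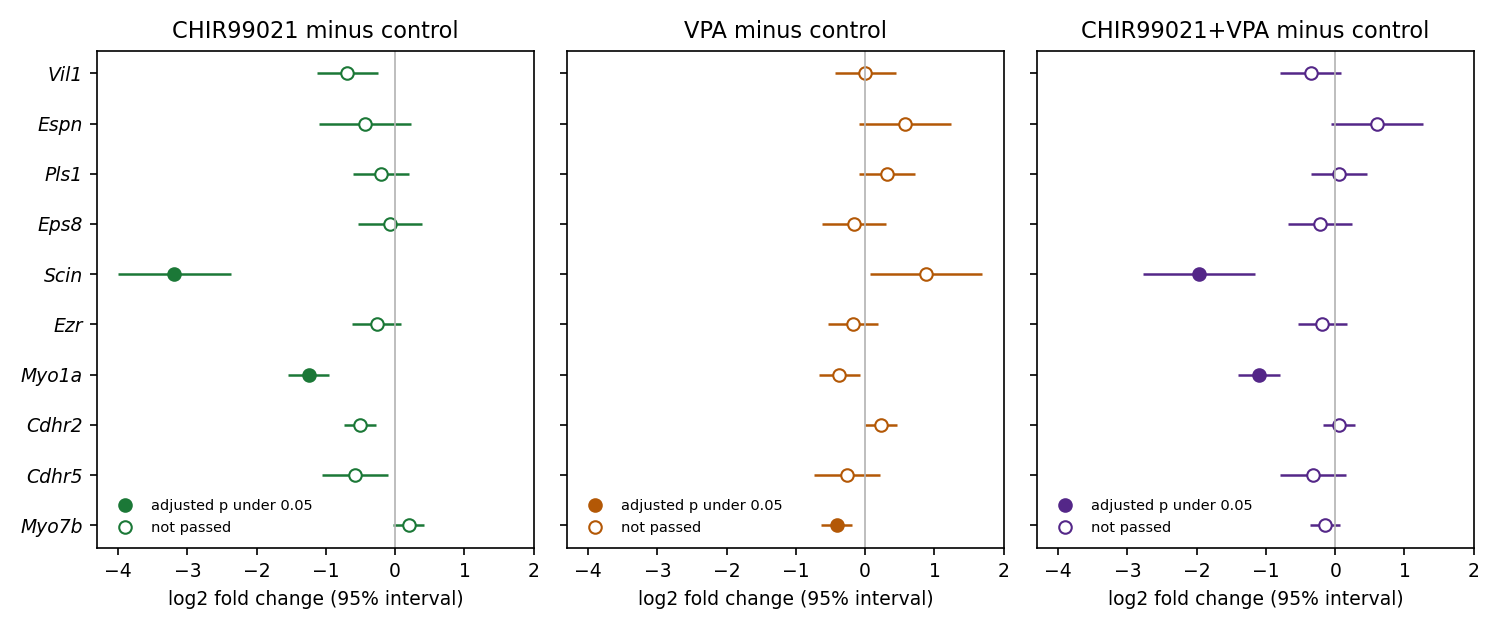
Difference in log2 ratio from control for the 10 genes under CHIR99021, VPA and both compounds, with 95% intervals from the limma fit (2 arrays per group); filled points passed at an adjusted p under 0.05. Scin and Myo1a are filled for CHIR99021 (-3.19 and -1.25) and for both compounds (-1.97 and -1.10), and Myo7b for VPA (-0.41).

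Scin and Myo1a were 2 of 10 genes that passed with both compounds, against 15.5% of all genes in either direction and 7.1% that fell. The 3 comparisons with control share the control arrays. Of the 10 differences, 6 were negative with VPA (median -0.08) and 7 with both compounds (median -0.20), against medians of 0.00 and 0.01 over all genes. With the arrays median-centred in place of loess, rises made up 76.7% of all genes called with VPA and 64.7% with both compounds, against 61.0% and 54.2%.

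The call of Scin and that of Myo1a with CHIR99021 each held in 12 of 18 alternative settings and were lost with the scanner's own ratios (adjusted p = 0.0584 and 0.0594), with outlier spots kept in the background model (0.0986 and 0.0762), and without either control array or either CHIR99021 array. Leaving out any of those arrays left 1 array in its group, and nearly all CHIR99021 calls over all genes were lost as well. The differences of Scin and Myo1a stayed between -3.50 and -2.83 and between -1.38 and -1.20. With both compounds, Myo1a held in 18 of 18 settings and Scin in 16, being lost without either control array. Myo7b with VPA held in 8 of 18 settings, at -0.48 to -0.39, and was lost without any 1 of the control, CHIR99021 or VPA arrays.

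The combination was also set against each compound alone. Adding VPA to CHIR99021 raised Cdhr2 1.48-fold, and adding CHIR99021 to VPA lowered Scin 7.21-fold. Against CHIR99021 alone, 1 of the 10 genes rose, where 10% of all genes passed in either direction and 6.19% rose. Cdhr2 was 0.56 ± 0.10 higher (adjusted p = 0.0189), by 0.60 in line 1 and 0.53 in line 2. Its dim probe gave 0.06, and the mean of both probes, 0.31, did not pass (adjusted p = 0.106). The Cdhr2 spot of the combination array of line 1 had a marked background, and without such spots the difference was 0.52 (adjusted p = 0.0627). The call held in 7 of 17 alternative settings.

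Scin was 1.22 ± 0.34 above CHIR99021 alone in organoids with both compounds and Espn 1.04 ± 0.28, and neither passed (adjusted p = 0.0737 and 0.0653). Myo7b was -0.34 ± 0.09 (adjusted p = 0.069). With the line as a block these 3 passed as well (adjusted p = 0.00905, 0.0124 and 0.0436), which made 4 calls in place of 1, while the share of all genes that passed was 17.8%, against 10% without the block. Of the 10 differences 8 were positive, with a median of 0.25, against 0.01 over all genes. Median-centred arrays moved the rises among all genes called against CHIR99021 alone to 78.4%, against 61.9%, and there Espn passed and Cdhr2 did not.

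Against VPA alone, Scin fell by 2.85 ± 0.34 (adjusted p = 0.0241), at -2.89 in line 1 and -2.81 in line 2. It was 1 of 10 genes, against 1.11% of all genes in either direction and 1.02% that fell. Myo1a was -0.73 ± 0.13 (adjusted p = 0.0583) and passed with the line as a block (adjusted p = 0.037, with 3.17% of all genes passing). The further Myo1a probe gave -0.46. Ezr and Espn were closest to VPA alone, and 8 of the 10 differences were negative (median -0.12). The Scin call held in 9 of 17 settings, with an adjusted p of 0.291 when only the 4 arrays compared were fitted and 0.062 with the scanner's own ratios.

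**Figure D3:**
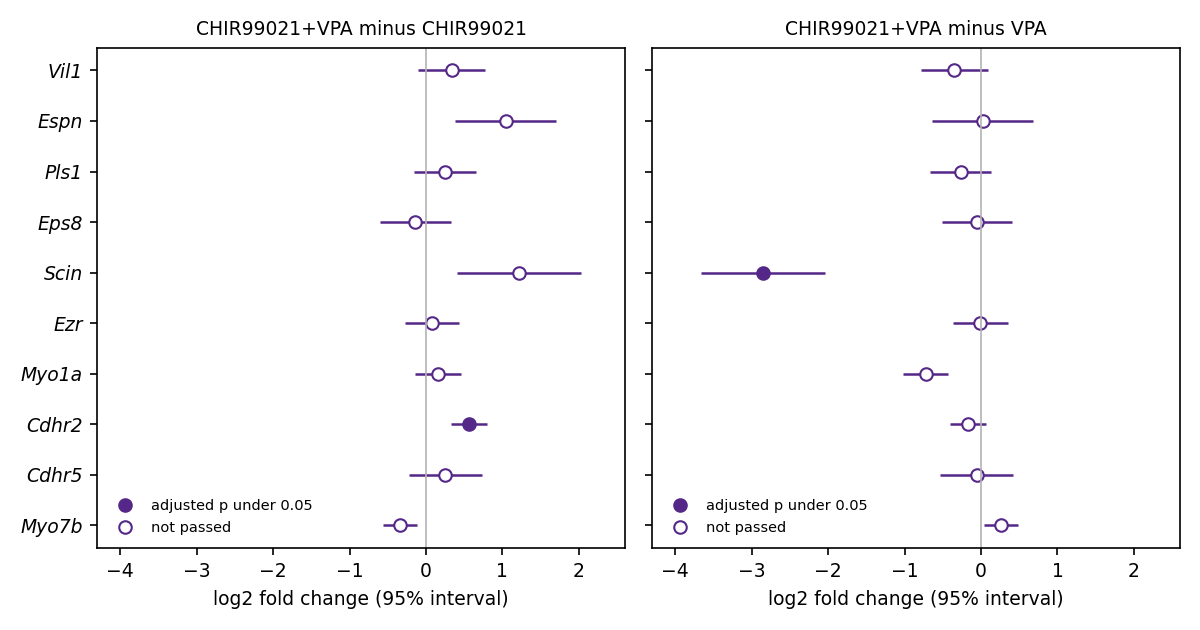
Difference in log2 ratio between organoids with both compounds and those with CHIR99021 alone (left) or VPA alone (right), with 95% intervals from the limma fit; filled points passed at an adjusted p under 0.05. Cdhr2 is filled at 0.56 on the left and Scin at -2.85 on the right.

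Whether the effect of both compounds departed from the sum of their single effects was tested as an interaction. By limma 0% of all genes passed (0 of 19270, with 506 at an unadjusted p under 0.05), and 0 of the 10 did. Before adjustment the limma p was 0.0223 for Myo1a (0.52) and 0.0496 for Cdhr2 (0.33). The interaction was positive for 9 of the 10, with a median of 0.33, against 0.00 over all genes, and these values use the same control arrays as the comparisons above.

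Of the 10 genes, 7 had 2 probes and Pls1, Scin and Ezr had 1. The probes of Myo7b and Eps8 gave differences from control within 0.1 of each other, and those of Vil1, Espn and Cdhr5 were smaller with CHIR99021 on the dimmer probe. Among the differences from control, the Myo1a probes parted with VPA only, at -0.37 and -0.61. Those of Cdhr2, at -0.51 and -0.05 with CHIR99021, cannot be set against each other closely, since the second was near background.

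**Figure D4:**
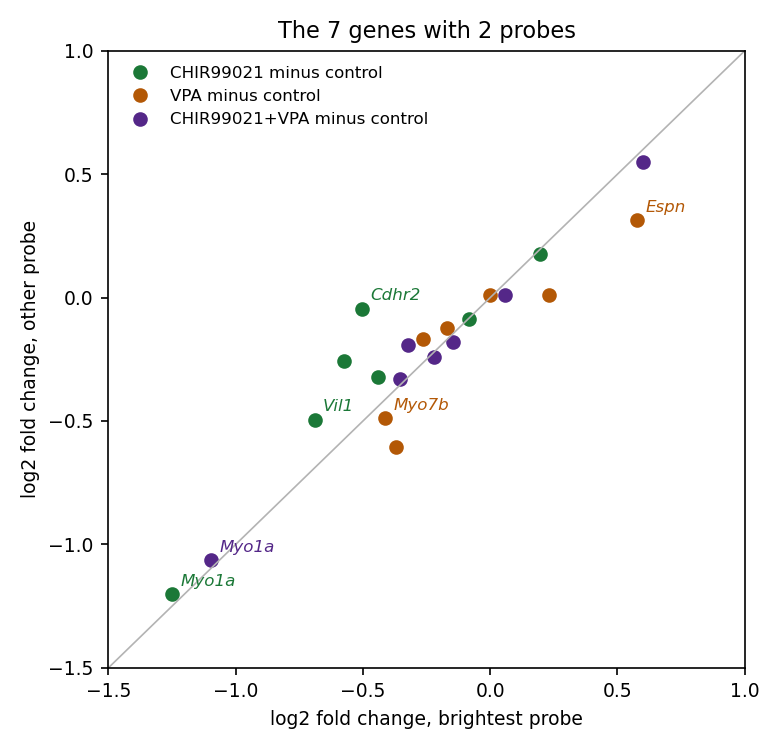
Difference from control on the brightest probe (x, log2) and on the other probe (y, log2) for the 7 genes with 2 probes under CHIR99021, VPA and both compounds; the line marks equal values. Both Myo1a probes lie near the line (-1.25 and -1.20 with CHIR99021), and Cdhr2, whose other probe was near background, lies off it (-0.51 and -0.05).

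Likeness to the 13984 tested genes with a symbol was measured as the root mean square distance over the 6 treated-minus-control differences of the 2 lines. Nearest to Vil1 were Dedd2 (0.146), Rapgefl1 (0.152), Hdac5 (0.164), Klhdc3 (0.177) and Serpinb6a (0.183). Nearest to Scin were Aldh1a1 (0.504), Ugt2b5 (0.587), Bdh2 (0.622), Ugt2b38 (0.627) and Dnah2 (0.66). The nearest of the 10 to Vil1 was Ezr, at 0.39 with 1227 genes nearer, and the nearest to Scin was Myo1a, at 1.48 with 136 genes nearer. Genes outside the 10 lay nearer to Vil1 and to Scin than any other member did. The 10 are few beside the 13984 genes compared, so this does not tell whether the 10 moved together. The distance also reflects the size of the changes.

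A wider list of microvillus and actin genes held 67 names, of which 65 had a probe and 61 were tested. With CHIR99021, 1 rose and 1 fell. With VPA 4 rose and 4 fell, with both compounds 3 rose and 8 fell, against CHIR99021 alone 2 rose and 2 fell, and against VPA alone 0 rose and 2 fell. Of all genes, 0.109% rose and 0.955% fell with CHIR99021, 6.55% rose and 4.18% fell with VPA, and 8.42% rose and 7.1% fell with both compounds. Against CHIR99021 alone 6.19% rose and 3.81% fell, and against VPA alone 0.0882% rose and 1.02% fell. Their medians were -0.09, 0.02, 0.03, 0.08 and -0.02 in that order of comparisons.

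Pdzk1, a PDZ scaffold of the brush border membrane that binds transporters, passed in each of the 5 comparisons. Its difference from control was -1.49 ± 0.10 with CHIR99021 (adjusted p = 0.0106), -2.12 ± 0.10 with VPA (adjusted p = 0.000372) and -2.92 ± 0.10 with both compounds (adjusted p = 8.99e-05). The combination differed by -1.43 from CHIR99021 alone (adjusted p = 0.00164) and by -0.80 from VPA alone (adjusted p = 0.0241), and the last of these calls held in 6 of 17 settings. Stk10, a kinase that phosphorylates ezrin and its relatives, rose by 1.47 ± 0.12 with VPA and by 1.30 with both compounds (adjusted p = 0.0021 and 0.00171), and was -0.02 with CHIR99021.

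Flna, the filament cross-linker filamin A, rose on its brightest probe by 1.13 with CHIR99021, 1.10 with VPA and 1.54 with both compounds (adjusted p = 0.0325, 0.00937 and 0.00207). Its 3 probes disagreed, a second giving 0.93, 0.63 and 1.22 and the last 0.00, 0.02 and -0.05. The Flna call with CHIR99021 held in 10 of 18 settings and was lost with the mean of its probes. Eps8l3, a relative of Eps8, fell by 1.06 ± 0.10 with both compounds (adjusted p = 0.00175). Flii, a gelsolin family member, fell by 0.54 with VPA (adjusted p = 0.017). Slc9a3r1, the scaffold that binds active ezrin, rose by 0.54 ± 0.11 in the combination against CHIR99021 alone (adjusted p = 0.0278), and was -0.50 with CHIR99021 alone against control. That call held in 8 of 17 settings and was lost, among others, with the scanner's own ratios and with median centring.

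Capg, which caps actin filaments and belongs to the gelsolin family, fell by 1.68 ± 0.23 in the combination against VPA alone (adjusted p = 0.0332). Against control it was -0.54 with both compounds and 1.15 with VPA (adjusted p = 0.181 and 0.0289), and the call against VPA alone held in 8 of 17 settings. Within the 3 tested genes of the tip-link complex outside the 10, 2 fell with both compounds and 0 passed with either compound alone. These were the scaffold gene Anks4b (-0.67, adjusted p = 0.0143) and Calml4 (-0.72, adjusted p = 0.0373), a light chain of myosin VIIb, named after their values were seen. Their calls held in 13 and 10 of 18 settings. Of 6 gelsolin family genes, 0 passed with CHIR99021, 1 rose and 1 fell with VPA, and 1 fell with both compounds. The ezrin relatives Msn and Rdx were not tested. Of 5 tested genes for scaffolds and kinases of ezrin and its relatives, 1 fell with CHIR99021. With VPA and with both compounds, 1 of these rose and 1 fell. Beside these small counts, 1.06%, 10.7% and 15.5% of all genes passed with CHIR99021, VPA and both compounds.

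Enterocytes are the cells that carry the brush border. As a yardstick for their markers, falls that passed made up 0.955%, 4.18% and 7.1% of the 19270 genes with CHIR99021, VPA and both compounds. Rises that passed made up 0.109%, 6.55% and 8.42%, in the same order. Of 16 enterocyte markers tested, 0 rose and 5 fell with CHIR99021 (median -1.78, all 16 negative), 1 rose and 4 fell with VPA (median -0.40), and 0 rose and 9 fell with both compounds (median -1.77). Their summed Cy5 signal over summed Cy3 was 0.342 and 0.27 under CHIR99021, 1.77 and 1.75 under VPA, 0.199 and 0.405 under the combination, and 1.00 and 1.03 on the control arrays. For the 10 microvillus genes the same quotient was 0.583 and 0.546, 0.883 and 0.894, 0.653 and 0.684, and 0.919 and 0.904 in the same order of groups. Both quotients were thus below control in both lines with CHIR99021 and with the combination, while with VPA the enterocyte quotient was above control and that of the microvillus genes slightly below. The quotient sums signals, so bright probes weigh most in it. With VPA the fatty acid binding protein genes Fabp1 and Fabp2 read 2.16 and 2.27 above control without passing (adjusted p = 0.0713 and 0.0527), while Apoa1 (-1.86) and Slc6a19 (-1.35) were among the 4 that fell.

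Tuft cells also carry villin-rich microvilli, and their 5 tested markers were negative in each comparison with control (medians -0.77, -1.09 and -1.63 for CHIR99021, VPA and both compounds), of which 0, 1 and 2 fell. Of all genes, 0.955%, 4.18% and 7.1% fell in those comparisons. The summed quotient of the tuft markers was 0.442 and 0.634 under CHIR99021, 0.285 and 0.581 under VPA, 0.208 and 0.381 under the combination, and 0.943 and 0.943 on the control arrays. The enterocyte count with CHIR99021 was 0 to 14 over 18 alternative settings, run for these markers after seeing the data, and that with both compounds 3 to 16. The part of enterocyte or tuft cell number in the microvillus results was not tested.

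**Figure D5:**
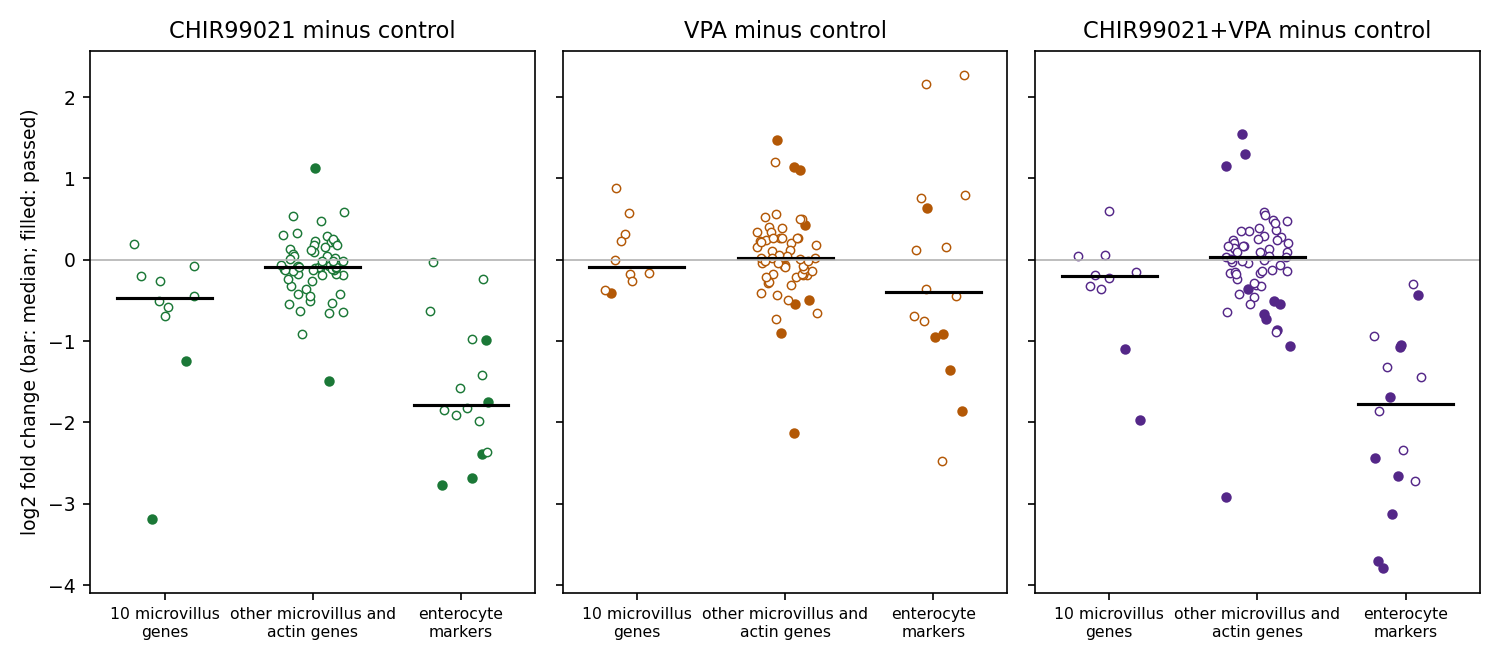
Difference from control (log2) of the 10 microvillus genes, the other 61 microvillus and actin genes tested and the 16 enterocyte markers under CHIR99021, VPA and both compounds; each point is a gene, filled where it passed, and bars are medians. The medians of the 3 lists were -0.47, -0.09 and -1.78 under CHIR99021, -0.08, 0.02 and -0.40 under VPA, and -0.20, 0.03 and -1.77 under the combination.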

How the data were processed

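Agilent 4x44K two-colour arrays were scanned and read with Feature Extraction 10.5.1.1 against build mm9, per the file headers. The deposited intensity columns are median spot and background signals in Cy5 and Cy3, with flags, and the deposited table of log2 ratios, 19228 per array, equals the scanner's log10 ratio times log2(10) within 5e-10. From the deposited log10 ratio an alternative was also made. The match to the scanner's ratio gives the scale and direction of the deposited table. Its array medians lay between -0.0284 and 0.0361, and no further centring was seen.

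Intensities were corrected by normexp with an offset of 50 (limma 3.58.1), the model being fitted without outlier-flagged spots, then loess-normalised within arrays with 1639 control spots at weight 0. Dyes were not swapped. Outlier spots were set missing, probes averaged and the brightest probe kept per gene. A gene was tested if some group had its spot well above background (Cy5) on each of its 2 arrays, which left 19333, less 63 with a missing value. lmFit and eBayes fitted 4 groups over 8 arrays (4 residual degrees of freedom) with 6 contrasts.

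Replicate numbers are the organoid lines, per the labels, and the line was kept out of the fit and used as a block in an alternative. Deviations of same-line arrays correlated at 0.121 to 0.753 across the 6 group pairs, so the numbers pair the samples. Line and slide cannot be told apart.

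The genes, the lists and the handling of outlier spots were chosen with earlier results of these data known. Named beyond the 10 were up to 4 genes per comparison of the wider list with the smallest adjusted p, and the 5 nearest genes of Vil1 and Scin. The scripts were tested on simulated data. The number of arrays limits the precision.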

Additional observations from a re-analysis of the deposited data

Results flagged for a closer look

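In 11 differences the 2 lines moved in opposite directions. None of these differences between the lines was tested, since each rests on 1 array per line and group. Values are log2 differences, with the gap given as line 1 minus line 2. Pls1 with CHIR99021 was 0.03 in line 1 and -0.43 in line 2 (gap 0.466), and with both compounds 0.31 and -0.21 (gap 0.522). Eps8 was 0.10 and -0.26 with CHIR99021 (gap 0.354), 0.06 and -0.50 with both compounds (gap 0.562) and 0.08 and -0.19 in the combination against VPA alone (gap 0.268). Its interaction was -0.01 and 0.07 (gap -0.0861). Myo1a in the combination against CHIR99021 alone was 0.37 and -0.06 (gap 0.432), and Cdhr2 with both compounds against control was 0.16 and -0.05 (gap 0.214). The gap was -0.182 for Espn in the combination against VPA alone, -0.195 for the Myo7b interaction and -0.062 for Vil1 with VPA. None of the 11 had passed over all genes.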

How the results depend on the processing

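The 10 genes gave 2, 1, 2, 1 and 1 calls for CHIR99021, VPA and both compounds against control and for the combination against CHIR99021 and VPA alone. With the line as a replicate block, which pairs the arrays of a line, these counts were 3, 2, 2, 4 and 2; the scanner's own ratios gave 0, 0, 2, 1 and 0, outlier spots kept in the background model 0, 0, 2, 0 and 1, and fits of only the groups compared 5, 0, 2, 0 and 0. Median centring gave 0 calls with VPA, treated ratios against 0 gave 6, 3 and 6, and both the mean of probes and leaving out spots of marked background, an alternative chosen after seeing the data, gave 0 for the combination against CHIR99021. The block changed no other call of the 10. Over all genes, 2.86%, 19.4%, 25%, 17.8% and 3.17% passed with the block, and 22.3%, 36.5% and 40.5% against 0. The shares were 0.187%, 7.89%, 13.1%, 6.93% and 0.176% with the scanner's own ratios. With outlier spots kept they were 0%, 7.82%, 12.5%, 8.43% and 0.145%. Fits of only the groups compared gave 5.63%, 8.17%, 11.9%, 1.49% and 0%. With VPA, 5.76% passed under median centring. Against CHIR99021 alone, 9.42% passed with the mean of probes and 9.35% without spots of marked background. Leaving out 1 array left 1 array in its group. Without either control array or either CHIR99021 array, none of the 10 passed with CHIR99021, and calls over all genes were nearly all lost as well. The limma interaction had 0 calls among the 10 under every setting run, and 0 to 2 among all genes. Leaving out arrays leaves fewer samples, and the cause of these changes was not tested.

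Over all genes, calls numbered 205 with CHIR99021 (0 to 4296 over the alternatives), 2068 with VPA (119 to 7026), 2991 with both compounds (540 to 7804), 1927 against CHIR99021 alone (287 to 3429) and 214 against VPA alone (0 to 611). The CHIR99021 count of 0 came with outlier spots kept, where limma gave 1561 genes an unadjusted p under 0.05. Rises were 10.2% of the CHIR99021 calls, and 55.2% with treated ratios against 0. The wider list, whose alternatives were added after seeing the data, had 0 to 26 calls with CHIR99021, 2 to 31 with VPA and 4 to 32 with both compounds. Of the differences of the 10 genes over all alternatives, 928 kept direction and side of the threshold, 29 newly passed, 42 no longer passed and 41 turned sign. None of those that turned sign had passed in the reported fit, and 1 passed in its alternative, Cdhr2 with both compounds against 0 (adjusted p = 0.0465).

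Differences that turned sign were the following. With the scanner's ratios, the combination against VPA alone was -0.0129 for Espn and 0.0127 for Ezr. With outlier spots kept, Eps8 with CHIR99021 was 0.0162, and the interaction was -0.0682 for Eps8, -0.0158 for Scin and -0.0459 for Myo7b. Vil1 with VPA was 0.0466 under median centring and 0.00505 as the mean of probes. Against 0, Cdhr2 was -0.0402 and Cdhr5 0.126 with VPA, and Pls1 was -0.205, Cdhr2 -0.214 and Cdhr5 0.0694 with both compounds. Without spots of marked background, Eps8 in the combination against CHIR99021 was 0.0131.

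Leaving out 1 array, Vil1 with VPA ranged from -0.0472 to 0.0459. Eps8 ranged from -0.234 to 0.0706 with CHIR99021, -0.477 to 0.0353 with both compounds, -0.395 to 0.117 against CHIR99021 alone, -0.309 to 0.204 against VPA alone and -0.227 to 0.285 as an interaction. Against control, the combination ranged from -0.152 to 0.254 for Pls1 and -0.0116 to 0.126 for Cdhr2. Against CHIR99021 alone it ranged from -0.0731 to 0.233 for Ezr and -0.0175 to 0.323 for Myo1a. Against VPA alone it ranged from -0.341 to 0.387 for Espn, -0.161 to 0.145 for Ezr and -0.274 to 0.161 for Cdhr5. The interaction ranged from -0.27 to 0.136 for Pls1, -0.0834 to 0.757 for Scin and -0.0125 to 0.152 for Myo7b.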

Other observations

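Markers of the other epithelial cell types were tested in the same fit. Of 6 goblet markers, 0 passed with CHIR99021 in the limma fit (all 6 negative, median -0.89, 4 at an unadjusted p under 0.05), 5 fell with VPA and 6 fell with both compounds. Of 5 Paneth markers 0, 1 and 3 fell in those comparisons, and of 3 enteroendocrine markers tested 0, 2 and 2. With CHIR99021, 4 of the 5 Paneth markers were positive (median 0.66) and 0 passed. Of all genes, 0.955%, 4.18% and 7.1% fell. None of the 5 stem cell markers tested passed. Under CHIR99021 all 5 were positive (median 0.38), 3 of them at an unadjusted limma p under 0.05. These markers were chosen by name, and the 3 comparisons share the control arrays.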
